A study of Mus musculus with 84 samples.

Results

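The glucocorticoid receptor gene and 6 genes tied to it were followed in neurons of the mouse frontal cortex after the psychedelic DOI. The 7 genes were chosen by symbol for their known tie to the receptor, with earlier results of these data known, and each matched 1 of the 55401 gene IDs of the count files: the receptors Nr3c1 and Nr3c2, and the target genes Fkbp5, Sgk1, Tsc22d3, Zbtb16 and Cdkn1a. All 7 had enough counts to be tested. The mice were of the strain 129S6/SvEvTac, 12 weeks old per the labels, and had received vehicle or an injection of DOI (2,5-dimethoxy-4-iodoamphetamine, an agonist of serotonin 2A receptors). Frontal cortex was taken from the DOI mice after 24 h, 48 h or 7 days, and nuclei positive for NeuN, a protein of neuronal nuclei, were sorted for RNA-seq. Each group had 4 mice with RNA, or 16 mice in all, and the 2 libraries made from each mouse (32 in total) were summed. The labels give no time for the vehicle group, and no stress or corticosterone measurement was used here.

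The glucocorticoid receptor, encoded by Nr3c1, is held in the cytoplasm by heat shock protein chaperones until corticosterone binds it, and then moves to the nucleus and acts on genes that carry glucocorticoid response elements. The mineralocorticoid receptor, encoded by Nr3c2, binds the same hormone with higher affinity and recognises the same DNA element. Of the targets, Fkbp5 encodes an immunophilin that lowers the affinity of the receptor for hormone. Sgk1 encodes a kinase that acts on ion channels and transporters, Tsc22d3 encodes GILZ, a leucine zipper protein known for anti-inflammatory action, Zbtb16 encodes the zinc finger repressor PLZF, and Cdkn1a encodes p21, an inhibitor of cyclin-dependent kinases that is also a target of p53. Hormone released under stress is known to raise such genes within hours in brain.

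The classical response element is a palindrome of 2 hexamers, and it was looked for in the 250 bases before each RefSeq transcription start (GRCm38.p6). Windows were found for 5 of the 7 genes, 13 in all: 6 for Sgk1, 3 for Tsc22d3, 2 for Cdkn1a and 1 each for Nr3c2 and Fkbp5. The motifs, searched on both strands, were the full palindrome (AGAACA, then 3 bases of any kind, then TGTTCT), a relaxed form that the full palindrome contains (GNACA, then 3 bases of any kind, then TGTNC, with N for any base), and the single hexamer AGAACA or TGTTCT, of which the palindrome holds 2. The 3 stretches below are shown because they come from a gene with the full palindrome, a gene with the single hexamer only and a gene with no match, and capitals mark the matches.

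Sgk1, window 5, chr10:21993640-21993889, + strand: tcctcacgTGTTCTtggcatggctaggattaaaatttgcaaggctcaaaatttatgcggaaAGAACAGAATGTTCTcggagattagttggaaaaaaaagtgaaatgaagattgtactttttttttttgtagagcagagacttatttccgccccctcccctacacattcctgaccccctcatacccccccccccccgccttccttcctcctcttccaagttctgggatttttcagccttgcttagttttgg
Tsc22d3, window 3, chrX:140600660-140600772, - strand: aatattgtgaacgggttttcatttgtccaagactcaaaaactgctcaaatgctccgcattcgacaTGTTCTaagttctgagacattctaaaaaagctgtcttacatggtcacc
Fkbp5, window 1, chr17:28486150-28486399, - strand: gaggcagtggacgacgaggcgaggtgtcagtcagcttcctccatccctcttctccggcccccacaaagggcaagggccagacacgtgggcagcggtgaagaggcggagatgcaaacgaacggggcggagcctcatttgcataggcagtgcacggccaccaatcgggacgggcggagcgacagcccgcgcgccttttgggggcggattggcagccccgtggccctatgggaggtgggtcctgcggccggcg

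The Sgk1 window lies within the bounds of the gene and outside the exons of the counted annotation, before the fifth of 6 listed starts. Its palindrome begins 189 bases before that start, at chr10:21993701-21993715, and a further hexamer begins 242 bases before it. Of 32851 windows of this length, 3 held the full palindrome (0.00913%), those of Sgk1, Acnat2 and Gm35041. The relaxed form was in 127 windows (0.387%) and the single hexamer in 5284 (16.1%). Single hexamers stood in 2 other Sgk1 windows and in the Tsc22d3 window, of which the 113 bases outside the counted exons are printed. The windows of Nr3c2, Fkbp5 and Cdkn1a held none of the 3 motifs. Counts per gene do not tell which of the starts was used.

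Depth differed between the groups. Vehicle mice had totals of 9151680 to 11517452 counts. The mice at 24 h had 6441396 to 8090559, those at 48 h 5834248 to 7344355 and those at 7 days 6972577 to 12354785. A feature of 18S ribosomal RNA sequence (Rn18s-rs5) split the mice into 2 separate ranges: its share of the counts was 0.00607% to 0.0101% in 6 mice, which were the 4 vehicle mice and mice 1 and 3 of the 7-day group, and 0.328% to 1.66% in the other 10 mice. All mice at 24 h and 48 h were in the upper range, so for those times this share and the treatment cannot be told apart. The labels and file headers used here name no batch of library preparation or sequencing. The share of mitochondrial genes lay between 0.0171% and 0.0701% for vehicle, between 0.0621% and 0.101% for 24 h and between 0.108% and 0.268% for 48 h. Neuron markers were high in every mouse (3894 to 6257 CPM summed over 6 genes), though Rbfox3, the gene of NeuN, rose (0.81) and Snap25 fell (-0.58) at 24 h (edgeR adjusted p = 0.0103 and 0.0395). Both did so at 48 h as well (0.82 and -0.62, edgeR adjusted p = 0.00775 and 0.0257), when Map2 also rose (0.55, 0.0400). Summed glial markers overlapped between vehicle and each time: for oligodendrocytes, 174.8 to 389.1 CPM for vehicle against 173.4 to 271.9 at 24 h and 199.2 to 262.3 at 48 h, and for microglia 69.6 to 107.7, 42.7 to 84.7 and 46.0 to 74.2. The sum of 7 endothelial and mural markers did not overlap at 24 h, at 10.9 to 11.7 CPM for vehicle against 13.0 to 32.2. At 48 h it was 10.4 to 24.1 CPM. Ly6c1 was called higher at 24 h (4.09, adjusted p = 0.0150, edgeR), and Cldn5, Flt1 and Pecam1 were too low to test. Among single glial markers Mbp fell (-0.83) and Cldn11 (1.80) and Cspg4 (1.97) rose at 24 h, and Cnp (-1.02) and Olig1 (-1.26) fell and Cspg4 (2.25) rose at 48 h (edgeR, adjusted p from 0.0173 to 0.0457). In such bulk samples, fewer cells of a type and less RNA per cell cannot be told apart. The sum of 5 excitatory neuron markers was 439 to 499 CPM for vehicle and 894 to 2356 at 24 h, carried by Camk2a (a mean of 180.1 against 1405 CPM). Of 5 inhibitory markers, Gad1 (-0.84, adjusted p = 0.0135, edgeR) and Gad2 (-0.63, 0.0352) fell at 24 h and Slc32a1 rose (1.10, 0.0443), and Dlx1 at 0.61 and Lhx6 at 0.24 did not pass. Their sum was 772 to 1038 CPM for vehicle, 458 to 677 at 24 h and 430 to 864 at 48 h, where it overlapped vehicle. At 48 h Gad1 (-0.60, adjusted p = 0.0458, edgeR) was lower and Slc32a1 (1.46, 0.0104) higher. The part of these measures in the results below was not tested except where a fit is named.

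Of the 5 targets, 3 were lower in DOI mice than in vehicle mice at 24 h and 48 h, and neither receptor passed the test at any time. Sgk1, Tsc22d3 and Zbtb16 fell at both times, with log2 fold changes from -0.91 to -1.55, and 8.63% of all genes were called lower at both. Fkbp5, Cdkn1a, Nr3c1 and Nr3c2 did not pass. With edgeR's quasi-likelihood test, adjusted by Benjamini-Hochberg over 17941 genes, 3 of 7 members were lower and 0 higher at 24 h, beside 10.4% of all genes called lower (24.2% called in either direction). At 48 h the count was again 3 of 7 lower, beside 13.3% of all genes (30.1% in either direction). At 7 days 0 of 7 passed and 0% of all genes did, with 1 member at an unadjusted p below 0.05, Tsc22d3, beside 16.8% of all genes. The 3 comparisons share the 4 vehicle mice. The median log2 fold change over the 7 members was -0.30 at 24 h, -0.31 at 48 h and -0.14 at 7 days, where that of all genes was 0.03, 0.02 and 0.02.

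**Figure D1:**
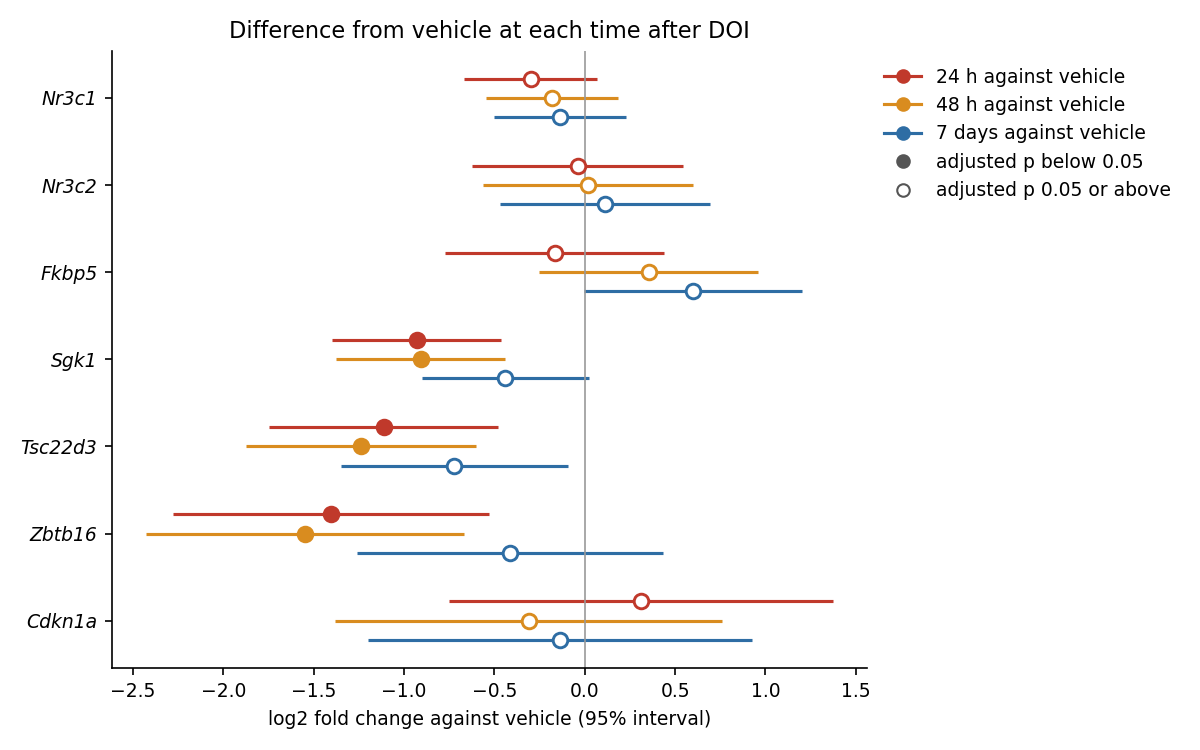
Log2 fold change of each of the 7 genes against vehicle at 24 h, 48 h and 7 days (points) with its 95% interval (lines), from the fit over 16 mice; filled points have an adjusted p below 0.05. The intervals of Sgk1, Tsc22d3 and Zbtb16 lie below 0 at 24 h and 48 h, and those of the 2 receptors span 0 at every time.

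Neither receptor differed past the threshold from vehicle. Levels are given as CPM, counts scaled to a common total with TMM factors. Nr3c1 (chromosome 18) stood at 137, 174, 145.5 and 170.3 CPM in vehicle mice 1 to 4, at 134, 121, 146 and 108 CPM at 24 h, at 149, 105, 158 and 140.0 CPM at 48 h and at 130.2, 167, 115 and 157 CPM at 7 days. All 4 groups overlapped. The log2 fold change against vehicle was -0.30 at 24 h (95% interval -0.67 to 0.07, adjusted p = 0.217), -0.18 at 48 h (-0.55 to 0.19, adjusted p = 0.448) and -0.14 at 7 days (-0.50 to 0.23, adjusted p = 0.721). These intervals allow a fall of up to 0.67 on the log2 scale at 24 h and do not show that the level stayed the same.

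Nr3c2 (chr8:76899442-77245012, + strand), the receptor of higher affinity, had 19.3, 28.0, 27.8 and 30.3 CPM in the vehicle mice. It had 19.6, 31.3, 23.2 and 28.3 CPM at 24 h, 40.4, 17.6, 21.3 and 27.1 CPM at 48 h, and 34.1, 23.0, 38.2 and 18.5 CPM at 7 days. The lowest and the highest of the 16 values were both from the 48 h group. At 24 h its log2 fold change was -0.04 (95% interval -0.62 to 0.54), while 48 h gave 0.02 (-0.57 to 0.60) and 7 days gave 0.11 (-0.47 to 0.69). Of its exon bases, 3.82% are shared with Gm10649 on the other strand, and reads of both cannot be told apart without strand. Per kilobase of exon, the level of Nr3c1 was 5.09 ± 0.683 times that of Nr3c2 in vehicle mice (SD, n = 4). The same ratio was 4.38 ± 1.33 at 24 h, 4.68 ± 1.31 at 48 h and 4.77 ± 2.23 at 7 days, and values of all 4 groups overlapped.

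Sgk1 (chr10:21882184-21999903, + strand) was the most counted target. It stood at 176, 239, 149.7 and 179 CPM in vehicle mice 1 to 4, at 93.5, 98.8, 116 and 81.8 CPM at 24 h, and at 82.9, 96.4, 102 and 115 CPM at 48 h. Every mouse at 24 h and 48 h was below the lowest vehicle mouse, a separation downward that 17.2% of all genes showed at 24 h and 19% at 48 h. At 24 h the log2 fold change was -0.93 (SE 0.22, adjusted p = 0.00817), so the level fell by 47.5%. At 48 h it was -0.91 (SE 0.22, adjusted p = 0.00726), and the level fell by 46.7%. Among all tested genes, 9.48% had a lower log2 fold change than Sgk1 at 24 h. Leaving out any 1 of the 8 mice compared kept the adjusted p at or below 0.0345 at 24 h and 0.0311 at 48 h.

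Tsc22d3 (chrX:140539528-140600659, - strand), the gene of GILZ, had 107, 103, 77.5 and 93.3 CPM in the vehicle mice. At 24 h it had 25.4, 48.4, 62.1 and 40.0 CPM, and at 48 h 30.7, 32.5, 40.5 and 57.6 CPM. The highest DOI mouse of these times (62.1) was below the lowest vehicle mouse (77.5). At 24 h its log2 fold change was -1.11 (SE 0.30, adjusted p = 0.0150), so the level fell by 53.8%. At 48 h it was -1.24 (SE 0.30, adjusted p = 0.00727), and the level fell by 57.7%. At 24 h 5.99% of all tested genes had a lower log2 fold change.

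Zbtb16 (chr9:48654297-48836222, - strand), the gene of PLZF, showed the largest fall of the 7 genes at 24 h and 48 h. Its levels were 28.2, 18.8, 21.2 and 20.8 CPM in the vehicle mice, 4.0, 10.7, 11.9 and 7.0 CPM at 24 h, and 5.9, 5.7, 8.9 and 9.8 CPM at 48 h. The groups again did not overlap vehicle, with 26 to 94 counts per mouse at 24 h against 165 to 299 for vehicle. At 24 h the log2 fold change was -1.40 (SE 0.42, adjusted p = 0.0221), lower than that of all but 3.04% of the tested genes. At 48 h it was -1.55 (SE 0.42, adjusted p = 0.0119). The 24 h call was lost when vehicle mouse 1, 24 h mouse 1 or 24 h mouse 4 was left out (adjusted p = 0.0648, 0.0632 and 0.0643), and the log2 fold change was then -1.27, -1.17 and -1.33.

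Fkbp5 (chr17:28399094-28517527, - strand), the immunophilin gene often read as a marker of receptor activity, did not pass the test at any time. It had 7.1, 10.5, 8.9 and 10.5 CPM in vehicle mice, 9.9, 6.4, 6.0 and 10.7 CPM at 24 h, and 16.9, 10.9, 10.5 and 8.9 CPM at 48 h. At 7 days it had 13.3, 10.6, 18.1 and 14.0 CPM. All 4 mice at 7 days were above all 4 vehicle mice, as were 2.81% of all genes. The lowest of the 7-day mice, at 10.65 CPM, was just above the highest vehicle mouse, at 10.51 CPM. At 24 h the log2 fold change was -0.17 (95% interval -0.77 to 0.44) and at 48 h it was 0.35 (-0.25 to 0.96). At 7 days it was 0.60 (-0.0031 to 1.20, unadjusted p = 0.0511, adjusted p = 0.300, edgeR). The gene was thinly counted, with 43 to 157 counts per mouse.

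Cdkn1a (chr17:29090976-29100727, + strand), the gene of p21, varied widely between mice, most of the 7 genes for vehicle and at 24 h. Its levels were 25.7, 13.0, 9.3 and 8.0 CPM for vehicle, 3.4, 25.3, 13.2 and 27.5 CPM at 24 h, 12.2, 8.2, 9.6 and 15.0 CPM at 48 h, and 17.8, 12.9, 4.6 and 15.7 CPM at 7 days. The vehicle range held all values of the 48 h group. At 24 h its log2 fold change was 0.31 (95% interval -0.75 to 1.37), while 48 h gave -0.31 (-1.38 to 0.76) and 7 days gave -0.14 (-1.20 to 0.93). These wide intervals hold changes of more than 2-fold, upward at 24 h and downward at 48 h and 7 days. Of its exon bases, 7.68% are shared with AC167363.2 on the other strand.

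**Figure D2:**
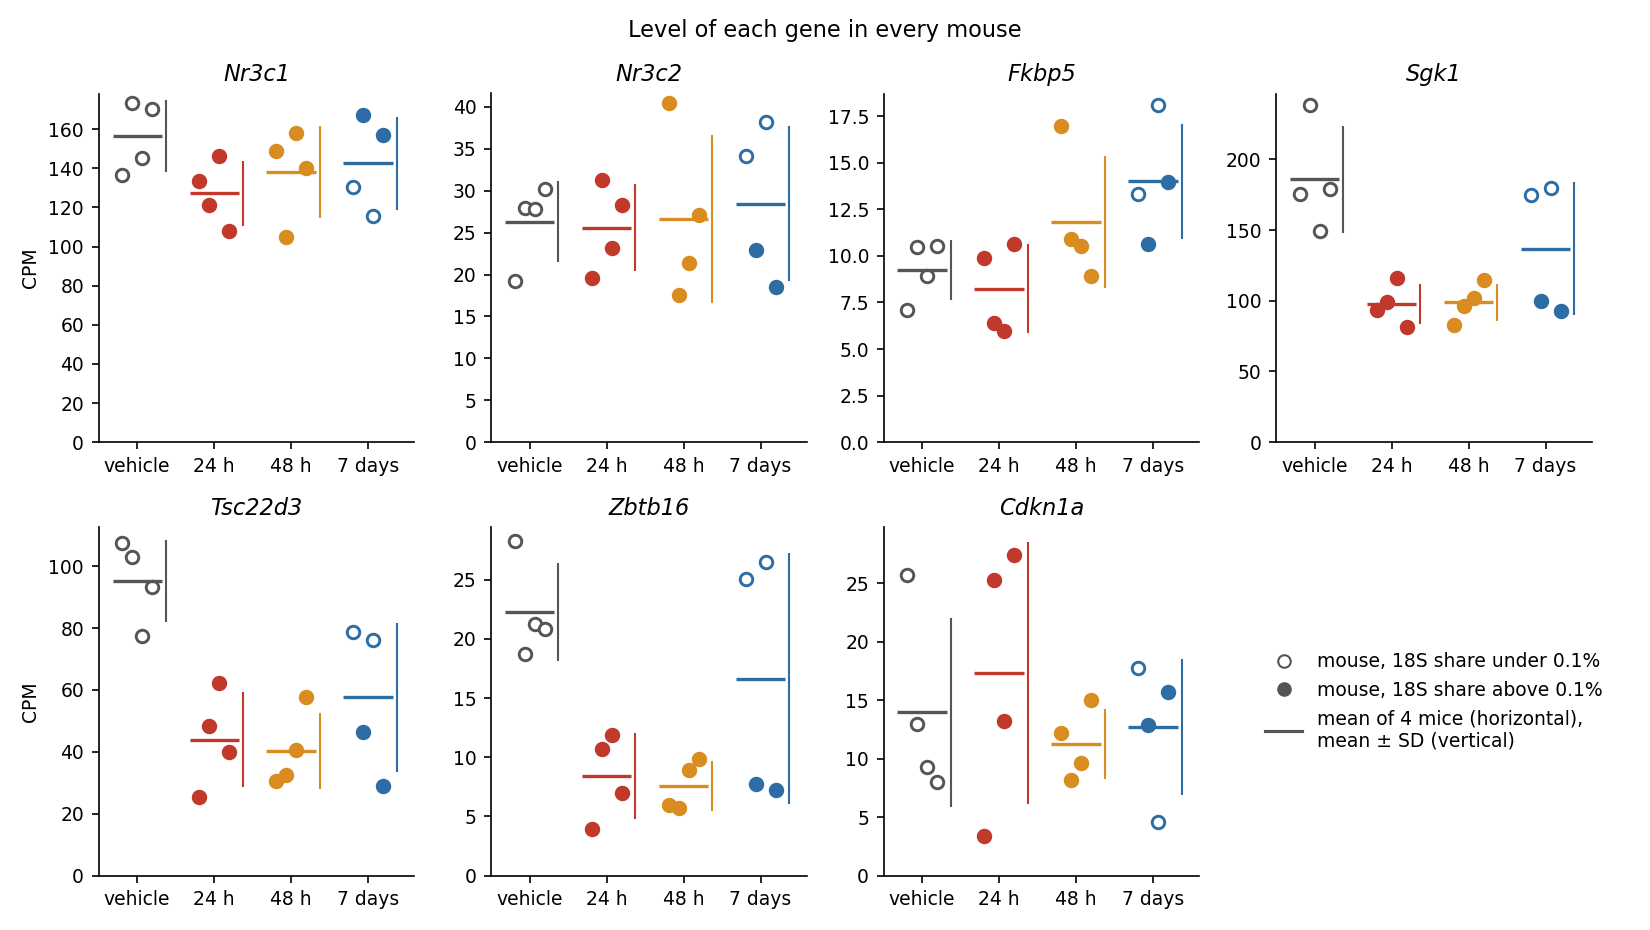
CPM of the 7 genes (vertical axes, linear and starting at 0) in each of the 16 mice by group; horizontal lines are means of 4 mice, vertical lines mean ± SD, and open points are the 6 mice with an 18S share under 0.1%. In Sgk1, Tsc22d3 and Zbtb16 the open points sit above all filled points, and in the other 4 genes open and filled points overlap.

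At 7 days the 3 genes that had fallen did not form a single group. Sgk1 stood at 175 and 179.9 CPM in mice 1 and 3 of that group and at 99.6 and 92.9 CPM in mice 2 and 4. Zbtb16 stood at 25.1 and 26.5 CPM in mice 1 and 3, above the vehicle mean of 22.3 CPM, and at 7.7 and 7.3 CPM in mice 2 and 4. Tsc22d3 stood at 78.8 and 76.1 CPM in mice 1 and 3, near the lowest vehicle mouse, and at 46.5 and 29.1 CPM in mice 2 and 4. For all 3 genes, mice 2 and 4 lay within the range of the 24 h and 48 h mice. Over all 4 mice at 7 days, the log2 fold change was -0.44 (SE 0.22, adjusted p = 0.323) for Sgk1, -0.72 (SE 0.30, adjusted p = 0.231) for Tsc22d3 and -0.42 (SE 0.40, adjusted p = 0.631) for Zbtb16.

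The same 2 mice, 2 and 4 of the 7-day group, carried an 18S share of 0.633% and 0.474%, against 0.00835% and 0.00607% in mice 1 and 3. Their share of mitochondrial counts was also higher, at 0.114% or more against 0.0413% or less, and its part in the split was not tested. Over all 16 mice, Sgk1 was 149.7 to 239 CPM in the 6 mice of the lower range and 81.8 to 116 CPM in the 10 of the upper range. Tsc22d3 was 76.1 to 107 against 25.4 to 62.1 CPM and Zbtb16 18.8 to 28.2 against 3.96 to 11.9 CPM, so that for these 3 genes the ranges of the share separated the mice without overlap. For Nr3c1 (115 to 174 against 105 to 167 CPM), Nr3c2, Fkbp5 and Cdkn1a they did not. The excitatory marker sum was also split, at 449 and 411 CPM in 7-day mice 1 and 3 and 1349 and 1208 CPM in mice 2 and 4. The sum of 8 markers of striatal projection neurons was 598 and 364 against 1721 and 1164 CPM in these mice. In the other groups the striatal sum did not follow the share. It was 244.4 to 415.6 CPM for vehicle, 168.6 to 287.3 at 24 h and 283.3 to 548.4 at 48 h. Of those 8, Drd1 (-0.90, adjusted p = 0.0272, edgeR) and Ppp1r1b (-1.04, 0.0484) were lower than vehicle at 24 h and Rgs9 was higher at 48 h (1.77, 0.0414).

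**Figure D3:**
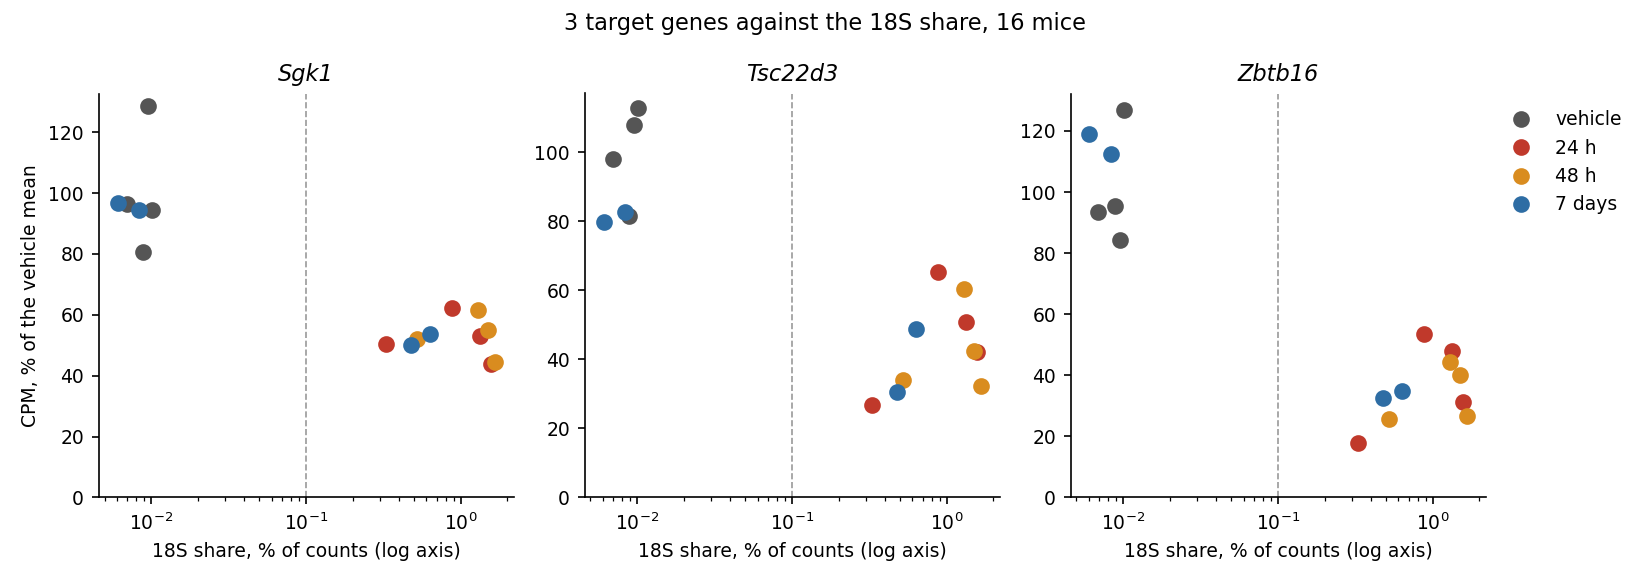
CPM of Sgk1, Tsc22d3 and Zbtb16 as a percentage of the vehicle mean (vertical axes) against the 18S share of the counts (log axis) in each of the 16 mice, coloured by group; the dashed line is at 0.1%. Mice 2 and 4 of the 7-day group sit with the 24 h and 48 h mice at 30.5% to 53.6% of the vehicle mean, and mice 1 and 3 sit with the vehicle mice at 79.9% to 119%.

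Fits that took the share into account gave no call. When the log2 share entered the model as a covariate, Sgk1 at 24 h had a log2 fold change of -0.08, Tsc22d3 had -0.30 and Zbtb16 had 0.14 (adjusted p at least 0.979, edgeR), and 0 of 7 members passed at any time, with 1 at an unadjusted p below 0.05 at each time, beside 4.85% of all genes at 24 h, 3.82% at 48 h and 3.36% at 7 days. At 7 days it was Fkbp5, and at the earlier times Nr3c1, at -0.70 (SE 0.27, adjusted p = 0.961, edgeR) at 24 h and -0.62 (SE 0.28, adjusted p = 0.996, edgeR) at 48 h. The next comparison rests on ranges drawn after the values were seen. Within the 6 mice of the lower range, 7-day mice 1 and 3 meet the 4 vehicle mice. There the log2 fold change was -0.07 (SE 0.19) for Sgk1, -0.30 (SE 0.18) for Tsc22d3 and 0.21 (SE 0.21) for Zbtb16. It was 0.76 (SE 0.26, unadjusted p = 0.0114, adjusted p = 0.726, edgeR) for Fkbp5. For Nr3c2 it was 0.46 (SE 0.21, unadjusted p = 0.0478, adjusted p = 0.799, edgeR). Nr3c1 had -0.35 (SE 0.17, unadjusted p = 0.0641, adjusted p = 0.811, edgeR), and 0 of 17466 genes were called in this fit. No vehicle mouse lies in the upper range and no 24 h or 48 h mouse in the lower, so a comparison of vehicle with those times inside a range cannot be made.

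Between the DOI times, 0 of 7 members passed in each of the 3 comparisons, where 0%, 0.00557% and 0% of all genes did (48 h against 24 h, 7 days against 24 h, 7 days against 48 h). At 48 h against 24 h, 0 members had an unadjusted p below 0.05 (1.88% of all genes did), and the log2 differences of the 3 fallen genes were 0.02 (SE 0.22) for Sgk1, -0.13 (SE 0.30) for Tsc22d3 and -0.14 (SE 0.42) for Zbtb16. At 7 days against 24 h, 3 members had an unadjusted p below 0.05, beside 14.2% of all genes: Fkbp5 at 0.77 (p = 0.0163, edgeR), Sgk1 at 0.49 (p = 0.0399, edgeR) and Zbtb16 at 0.99 (p = 0.0279, edgeR). At 7 days against 48 h, 2 did, beside 16.5% of all genes: Sgk1 at 0.47 (p = 0.0488, edgeR) and Zbtb16 at 1.13 (p = 0.0140, edgeR). In the test over the 4 groups at once, Sgk1 (adjusted p = 0.0149, edgeR), Tsc22d3 (0.0200) and Zbtb16 (0.0257) passed, which is 3 of 7 beside 18.8% of all genes. The 4-group count was 0 without vehicle mouse 2, 1 without vehicle mouse 1 or 4, and 2 without vehicle mouse 3, 24 h mouse 4 or 48 h mouse 2.

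Per kilobase of exon, the order of levels in vehicle mice was Sgk1, Tsc22d3, Nr3c1, Zbtb16, Nr3c2, Cdkn1a and Fkbp5. The means were 37.9 ± 7.68 CPM per kilobase for Sgk1, 21.95 ± 3.04 for Tsc22d3 and 20.4 ± 2.37 for Nr3c1 (SD, n = 4 each), and the last 2 overlapped. Zbtb16 at 4.21 ± 0.781, Nr3c2 at 4.07 ± 0.748 and Cdkn1a at 3.94 ± 2.27 CPM per kilobase did not differ beyond their spread. Fkbp5, at 0.977 ± 0.171 CPM per kilobase, was the lowest. At 24 h Sgk1 was at 19.9 ± 2.90, Nr3c1 at 16.6 ± 2.16, Tsc22d3 at 10.1 ± 3.54 and Zbtb16 at 1.59 ± 0.686 CPM per kilobase. Sgk1 and Nr3c1 then overlapped.

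The 2 libraries of a mouse gave like values. Over 16 mice the median fold between them was 1.05 for Nr3c1, 1.08 for Sgk1, 1.06 for Tsc22d3 and 1.20 for Zbtb16. The largest fold between libraries was 1.78 for Zbtb16 and 1.81 for Cdkn1a.

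Genes whose log2 CPM followed that of a member most closely were sought among 11105 genes over the 16 mice, and r is given as a description of libraries that share depth and the split in 18S share. The closest gene was Vldlr for Nr3c1 (Pearson r = 0.819), Sec16a for Nr3c2 (0.897), Ccdc149 for Fkbp5 (0.808) and Acot7 for Cdkn1a (0.903). For the 3 genes split by the share, r is given inside each range. Sgk1 went with Qrich1 at r = 0.89 over the 6 mice of the lower range and 0.69 over the 10 of the upper, Tsc22d3 with Ttc9c at 0.70 and 0.87, and Zbtb16 with Hyou1 at 0.78 and 0.90.

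Other genes known to be induced by glucocorticoids moved in both directions. Of 26 on the list, 22 had enough counts to be tested, and at 24 h 5 rose and 2 fell, beside 13.8% of all genes called higher and 10.4% lower. At 48 h 6 rose and 3 fell, beside 16.8% and 13.3%. At 7 days 0 passed in the main edgeR fit, which filters low counts. Without a filter edgeR called Per1 (adjusted p = 0.000804) and Bcl6 (0.0198) higher, and DESeq2 did so too (0.00561 and 0.0225). The median log2 fold change of the list was -0.01 at 24 h and 0.29 at 48 h. Those that rose were Per1, Nfkbia, Bcl6, Mt1 and Plin4, with Rhob at 48 h, and those that fell were Errfi1 and Cebpb, with Dusp1 at 48 h. Of the exon bases of Cebpb, 20.7% are shared with Tmem189 on the other strand. Ddit4, Angptl4, Anxa1 and Lcn2 were too low to test.

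Per1, a clock gene with a known response element, stood at 6.23, 10.3, 11.8 and 11.5 CPM in vehicle mice and at 29.6, 28.7, 45.4 and 47.2 CPM at 24 h. Its groups did not overlap and its log2 fold change was 1.92 (SE 0.32, adjusted p = 0.00196). Bcl6, a transcriptional repressor, stood at 3.78, 2.84, 4.81 and 4.57 CPM for vehicle and at 15.5, 17.1, 17.8 and 17.6 CPM at 24 h, which was 2.08 higher on the log2 scale (SE 0.38, adjusted p = 0.00290). Errfi1, an inhibitor of EGF receptor signalling, stood at 35.2, 41.2, 41.5 and 42.4 CPM for vehicle and at 18.4, 20.2, 13.95 and 18.5 CPM at 24 h, so that its log2 fold change was -1.17 (SE 0.26, adjusted p = 0.00532). Dusp1, a phosphatase of MAP kinases that is also an immediate early gene, missed the threshold at 24 h (log2 fold change -1.02, adjusted p = 0.0537, edgeR) and fell at 48 h (-1.58, SE 0.38, adjusted p = 0.00658). Vehicle mouse 3 had 244.8 CPM of Dusp1 against 79.7 to 102.8 in the other vehicle mice. Without it the log2 fold change was -0.49 at 24 h (adjusted p = 0.295, edgeR) and -1.05 at 48 h (0.0303), whereas the 24 h call was gained without vehicle mouse 2 (0.0498) or 4 (0.0482). At 7 days, Per1 was 16.7, 42.3, 19.2 and 25.1 CPM in mice 1 to 4, all above the vehicle mice, and Bcl6 was 5.59 and 3.62 CPM in mice 1 and 3 and 17.2 and 14.6 CPM in mice 2 and 4. The 2 mice high in Bcl6 were those in which Sgk1, Tsc22d3 and Zbtb16 were low. In promoter windows of 24 of the 26 genes, 0 held the full palindrome, 2 (Mt1 and Fam107a) held the relaxed form and 3 held the single hexamer, where 0.0111%, 0.44% and 18.2% of all genes with a window did.

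Chaperones and coregulators of the receptor also went both ways. Of 11 chaperones and immunophilins, Hsp90aa1 and St13 rose at both times, and Ppid and Bag1 fell at both. Hspa8, Fkbp4 and Ppp5c fell as well at 48 h, which made 2 higher and 5 lower of 11, beside 16.8% of all genes higher and 13.3% lower. At 24 h it was 2 and 2 of 11, beside 13.8% and 10.4%. Hsp90aa1, the inducible HSP90 that holds the unliganded receptor, went from 291 ± 40.0 CPM to 673 ± 174 at 24 h (SD, n = 4 each), with a log2 fold change of 1.21 (SE 0.32, adjusted p = 0.0140, edgeR). Bag1, a cochaperone that lowers receptor activity, went from 121 ± 19.5 to 29.1 ± 5.55 CPM, a log2 fold change of -2.06 (SE 0.40, adjusted p = 0.00337, edgeR). The call of Hsp90aa1 was lost at 24 h without 24 h mouse 4 (adjusted p = 0.0504, edgeR) and at 48 h when any mouse but 48 h mouse 2 was left out (up to 0.105). Ppid, the immunophilin cyclophilin 40, went from 304 ± 37.5 to 126 ± 20.7 CPM (-1.27, SE 0.24, adjusted p = 0.00308, edgeR).

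Of 11 coregulators, 2 rose and 2 fell at 24 h and 3 rose and 1 fell at 48 h, counts near the shares of all genes (13.8% higher and 10.4% lower at 24 h, 16.8% and 13.3% at 48 h). At 24 h Ncor1, a nuclear receptor corepressor, went from 409 ± 14.4 to 225 ± 46.9 CPM, a log2 fold change of -0.86 (SE 0.20, adjusted p = 0.00725, edgeR). The acetyltransferase gene Ep300 rose (0.78, SE 0.21, adjusted p = 0.0128, edgeR) and the corepressor gene Nrip1 fell at 24 h (-0.70, SE 0.22, adjusted p = 0.0301, edgeR), while Nrip1 missed the threshold at 48 h (-0.58, adjusted p = 0.0573, edgeR) but passed there with voom (0.0104), no filter (0.0462), library 1 alone (0.0338) or only the groups compared (0.0141). The 24 h call of Nrip1 was lost when any mouse but vehicle mouse 2 or 24 h mouse 1 was left out (adjusted p up to 0.0738, edgeR).

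Genes around the hormone itself form small lists, whose counts stand beside 24.2% of all genes called at 24 h and 30.1% at 48 h. Of 3 tested genes of steroid metabolism, H6pd, which supplies cofactor to the corticosterone-regenerating enzyme, rose at 24 h (1.34, SE 0.33, adjusted p = 0.00886, edgeR), or 0.85 (adjusted p = 0.0374) without 24 h mouse 1, and Hsd11b1, that enzyme, had 6.49 ± 1.96 CPM for vehicle and a log2 fold change of 0.23 (SE 0.61). Of the other steroid receptors, 0 of 3 passed at 24 h and Pgr rose at 48 h (1.01, SE 0.37, adjusted p = 0.0432, edgeR), a call lost when any mouse but vehicle mouse 4 or 48 h mouse 1 was left out (adjusted p of 0.0684 or more) and with library 2 alone (0.0564). In the CRH system, which drives hormone release, 0 of 6 passed at any time with edgeR, while voom with quality weights called Crhr1 higher at 24 h (adjusted p = 0.0254). The edgeR fit gave log2 fold changes at 24 h of -0.13 (SE 0.32) for Crh and 0.36 (SE 0.20) for Crhr1.

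With edgeR 0 of 6 tested paralogs of Sgk1, Tsc22d3 and Cdkn1a were called lower, beside 10.4% of all genes at 24 h and 13.3% at 48 h. The 6 include Cdkn1b and Cdkn1c, paralogs of Cdkn1a, which was not among the fallen targets. With quality weights, voom called Sgk3 lower at 24 h and 48 h (adjusted p = 0.0144 and 0.0493). Of the 6, Tsc22d1 rose at 24 h and 48 h (0.84 at each, SE 0.26, adjusted p = 0.0247 and 0.0207, edgeR), Tsc22d4 rose at 48 h (1.03, SE 0.32, adjusted p = 0.0237, edgeR), and Sgk3 had -0.33 (SE 0.21, adjusted p = 0.253, edgeR) at 24 h. The calls of Tsc22d1 were lost without vehicle mouse 1 or 2 or mouse 1 of the DOI group compared, and at 24 h also without vehicle mouse 4 (adjusted p up to 0.0778, edgeR). That of Tsc22d4 was lost without vehicle mouse 1 or 3 or 48 h mouse 1 or 2 (up to 0.0780), with no filter on low counts (0.123) and with library 1 alone (0.126). Of 13 tested p53 target genes, the other pathway known to act on Cdkn1a, 1 rose and 4 fell at 24 h (13.8% and 10.4% of all genes did) and 1 rose and 5 fell at 48 h (16.8% and 13.3%). Zmat3 rose at both times (1.38, SE 0.30, adjusted p = 0.00542 at 24 h, edgeR), and Plk2, a kinase also induced by neuronal activity, fell at both (-1.05, SE 0.24, adjusted p = 0.00651 at 24 h, edgeR). All 8 lists had 0 genes past the threshold at 7 days in the main edgeR fit with all mice. When 7-day mouse 1 was left out, Per1 (adjusted p = 0.0107, edgeR), Bcl6 (0.0205), Bag1 (0.0418), Ep300 (0.0400) and Zmat3 (0.0344) passed at 7 days. Without 7-day mouse 3, Per1 (0.0166), Bcl6 (0.0116) and Ppid (0.0352) did. Mice 1 and 3 are the 7-day mice in the lower range of the 18S share, where all vehicle mice lie. Leaving either out leaves that group with more mice of the upper range than of the lower. The share of all genes called in these fits is not given here. The list results compare the same mice, which the 18S share separates, and with that share as a covariate none of the 17941 tested genes was called at 24 h or 48 h. Some log2 fold changes kept most of their size in that fit, such as H6pd at 24 h (1.17 against 1.34) and Tsc22d4 at 48 h (0.87 against 1.03).

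**Figure D4:**
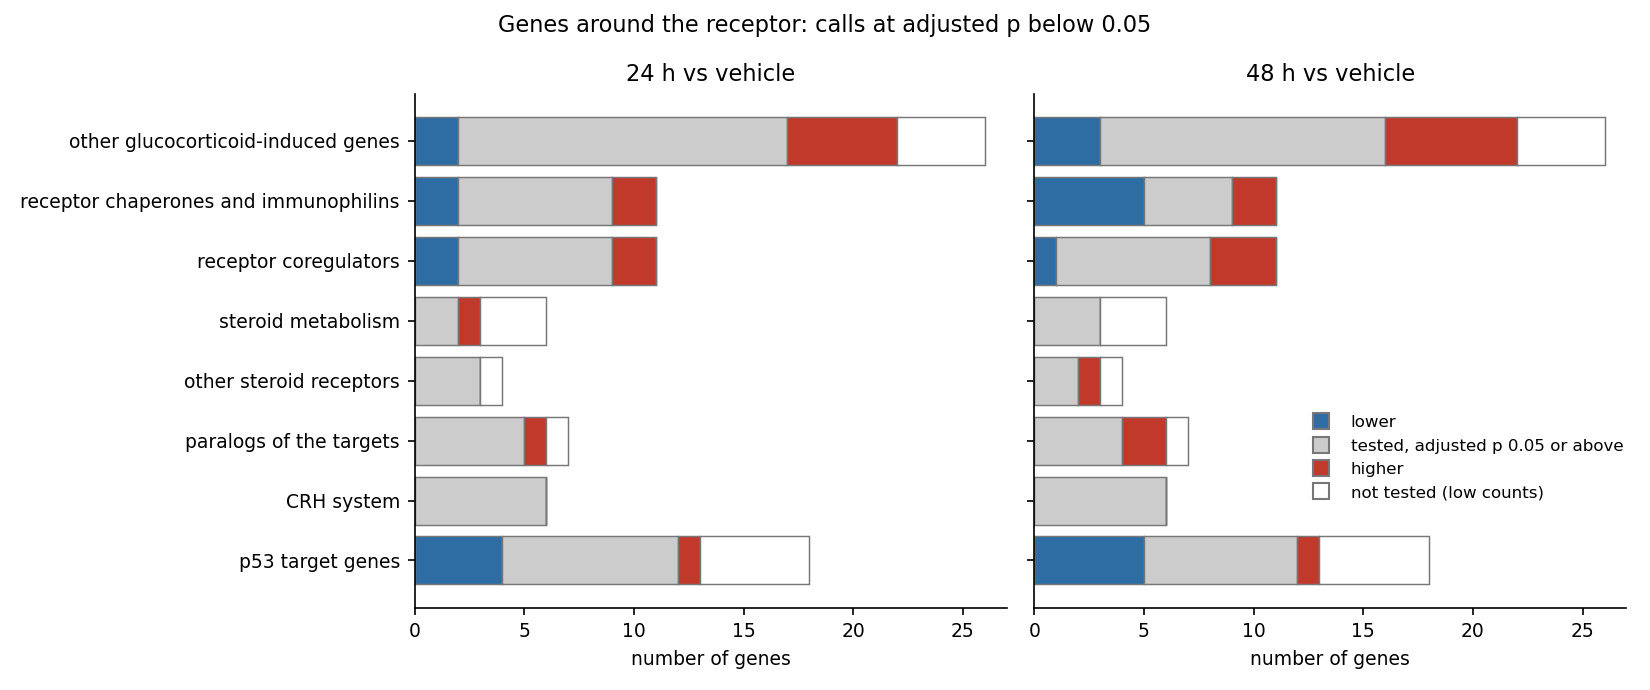
Number of genes (horizontal axes) in each of 8 lists that were lower, higher or not past an adjusted p of 0.05 against vehicle at 24 h and 48 h, with genes too low to test in white. Glucocorticoid-induced genes were called in both directions at both times, and no gene of the CRH system was called by edgeR.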

How the data were processed

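RNA-seq counts of sorted NeuN-positive nuclei were used. The values are raw counts per gene as the authors deposited them: per the file headers, featureCounts 2.0.0 was run over exons by gene ID of a GRCm38 annotation, and the options for strand, paired reads, multi-mapping and overlaps stayed at their defaults. The submitters' processing notes list Trim Galore 0.6.5. The RNA aligner is not given in the sources used here. The H3K27ac samples were not analysed here. For 3 mice the file header carries mouse number 6, while the labels' numbers are given here.

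The 2 libraries of a mouse were summed, and 4 mice per group were compared. Genes were kept with filterByExpr (17941), scaled with TMM factors and tested with edgeR 4.0.16 (glmQLFit and glmQLFTest, R 4.3.3) in 1 fit over 4 groups. A Benjamini-Hochberg adjusted p below 0.05 was called. Standard errors were taken as the fold change divided by the root of F, and 95% intervals from the t distribution. The fit was tested on simulated counts. Log2 CPM used a prior count of 2. 3 counts, the floor, were 0.254 to 0.502 CPM over the mice, and floors and errors cover no molecule counting, since reads carry no molecular identifiers.

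All 7 members were named. From each of 8 lists up to 4 genes were named, ranked by p in the 4-group test, if their mean log2 CPM reached 2. The values of 1 listed coregulator are not reported here. The 2 genes with the highest r were sought per member. The members and the lists were chosen with earlier results of these data known. Alternatives were DESeq2 1.42.0, limma 3.58.1 voom with quality weights, other scaling and filters, each library alone, fits of the compared groups alone, a block by mouse number, thinned counts, the 18S share as a covariate, each mouse left out and a threshold of 0.1. The fits by ranges of the 18S share were chosen after seeing the data.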

Additional observations from a re-analysis of the deposited data

How the results depend on the processing

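The counts of members past the threshold were recomputed with DESeq2, voom with quality weights, RLE factors, total counts only, no filter, a filter of 1 CPM in 4 mice, each library alone, only the groups compared (pairwise comparisons only), the replicate block, thinned counts and a threshold of 0.1. Under each of these the count stayed at 3 at 24 h and 48 h, with Sgk1, Tsc22d3 and Zbtb16 called, and at 0 in the other pairwise comparisons. In the 4-group test it was 3, or 4 with voom, which added Fkbp5. Mouse numbers only name the mice: the mean correlation of same-numbered deviations was -0.0362, and the fit with the replicate block gave 3 calls at 24 h and 3 at 48 h and changed no other call of a member. Among the listed genes named, it lost the 48 h calls of Hsp90aa1 (adjusted p = 0.0580, edgeR) and Pgr (0.0602).

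The 18S share was the exception. As a covariate it left 0 members at 24 h, 0 at 48 h and 0 in the 4-group test, as did its 2 ranges as a term (0, 0 and 0). The covariate changed the sign of some log2 fold changes that had passed, but none of the values with a changed sign passed (adjusted p at least 0.9676, edgeR). Others kept their direction, such as Per1 (0.94 at 24 h, 0.84 at 48 h) and Errfi1 (-0.40 and -0.50). At 24 h the values with a changed sign were 0.14 for Zbtb16, -0.34 for Hsp90aa1, -0.07 for Ep300, 0.18 for Nrip1 and -0.06 for Tsc22d1. At 48 h they were 0.05 for Zbtb16, -0.07 for St13, -0.70 for Hsp90aa1, 0.07 for Ncor1, -0.01 for Ep300, -0.14 for Tsc22d1 and 0.10 for Plk2. With the 2 ranges as a term, the values with a changed sign at 24 h were 0.37 for Zbtb16, -0.01 for St13, -0.04 for Hsp90aa1, -0.03 for Ep300, 0.25 for Nrip1 and -0.28 for Tsc22d1. At 48 h they were 0.23 for Zbtb16, -0.10 for St13, -0.31 for Hsp90aa1, -0.38 for Pgr, -0.28 for Tsc22d1 and 0.08 for Plk2. None of these passed (adjusted p at least 0.941, edgeR). Only the 7-day group has mice in both ranges, so the split of its mice sets this term. The fit with the term therefore cannot separate the share from the treatment at 24 h and 48 h. The cause was not tested.

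Leaving out each mouse in turn gave 2 to 3 members at 24 h and 3 at 48 h. In the 4-group test it gave 0 to 3, with 1 member without vehicle mouse 1 or 4 and 0 without vehicle mouse 2. For the listed genes given with values in the report, mice whose omission changed a call are given there. Listed genes named without values (such as Nfkbia and Mt1) were not refitted this way. Settings also differed for listed genes, with adjusted p from edgeR where no other tool is named. At 24 h voom called Sgk3 lower (0.0144) and Crhr1 higher (0.0254). Dusp1 was called lower at 24 h by DESeq2 (0.0389) and voom (0.0124). No filter (0.00132), library 2 alone (0.0475), only the groups compared (0.0208) and thinned counts (0.0470) called it too. H6pd was called higher at 48 h by voom (0.0240), library 1 alone (0.0485), only the groups compared (0.0146) and thinned counts (0.02925). No filter (0.0309) and only the groups compared (0.0300) called Pgr higher at 24 h. At 7 days DESeq2 called Per1 (0.00561) and Bcl6 (0.0225) higher, as did no filter (0.000804 and 0.0198). Depth was thin for Fkbp5, Zbtb16 and Cdkn1a, with as few as 22 counts in a mouse.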
